A study of Homo sapiens with 6 samples.

Results

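Metallothionein and zinc transporter genes were examined in MDA-MB-436 cells with and without induction of an shRNA against MUC1. The 10 genes were chosen by name, with earlier results of these data known. They were the metallothioneins MT1E, MT1F, MT1G, MT1M, MT1X and MT2A and the metal-responsive transcription factor MTF1. The zinc exporter SLC30A1 and the zinc importers SLC39A6 and SLC39A10 completed the set. All 10 were present among the 37887 rows of the count table, and 8 were among the 15355 genes with enough counts to test. MT1G and MT1M were not.

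MDA-MB-436 is a cell line of BRCA1-mutant breast cancer that lacks hormone receptors and HER2 amplification (triple-negative). Both groups carried the same stable, puromycin-selected, tetracycline-inducible MUC1 shRNA, and were grown in triplicate with 0.1% DMSO as vehicle (control, n = 3) or 500 ng/ml doxycycline (shMUC1, n = 3). The titles of the control samples read as a control shRNA, but their treatment label and the series design place vehicle on the inducible line itself, and they were taken as such. The length of treatment of this line is not given in the sources used here. Doxycycline itself chelates divalent metal ions. Cells with a control shRNA under doxycycline were not analysed here, so exposure to doxycycline and induction of the shRNA cannot be told apart. Nothing further says that the triplicates were separate experiments, so p-values measure the spread between these libraries.

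Metallothioneins are small cysteine-rich proteins that bind zinc and copper and buffer their free levels in the cell. When zinc rises, MTF1 binds metal response elements in the promoters of metallothionein genes and of SLC30A1 and raises their transcription. Members of the SLC30 (ZnT) family move zinc out of the cytosol, across the plasma membrane or into vesicles, and members of the SLC39 (ZIP) family move it into the cytosol.

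RefSeq promoter windows (GRCh38.p14, 250 bases before to 50 after the annotated start) were matched for 6 of the 10 genes, namely MT2A, MT1X, MTF1, SLC30A1, SLC39A6 and SLC39A10, and not for MT1E, MT1F, MT1G and MT1M. The windows of MT2A, MT1X and SLC30A1 are shown because these genes are known MTF1 targets and carried the most matches to the core of the metal response element among the matched genes. They are written 5′ to 3′ on the strand of the gene, and capitals mark each match to TGCACNC or TGCGCNC on either strand. The MT2A window is chr16:56608334-56608633 (plus strand), the MT1X window is chr16:56682220-56682519 (plus strand) and the SLC30A1 window is chr1:211579112-211579411 (minus strand).
MT2A: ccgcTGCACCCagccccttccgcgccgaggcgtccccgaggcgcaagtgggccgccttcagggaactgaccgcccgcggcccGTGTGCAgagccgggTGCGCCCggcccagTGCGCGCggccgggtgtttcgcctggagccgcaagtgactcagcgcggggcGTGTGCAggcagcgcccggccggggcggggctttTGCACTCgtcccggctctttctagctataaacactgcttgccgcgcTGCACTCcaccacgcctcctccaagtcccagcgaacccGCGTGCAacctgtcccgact
MT1X: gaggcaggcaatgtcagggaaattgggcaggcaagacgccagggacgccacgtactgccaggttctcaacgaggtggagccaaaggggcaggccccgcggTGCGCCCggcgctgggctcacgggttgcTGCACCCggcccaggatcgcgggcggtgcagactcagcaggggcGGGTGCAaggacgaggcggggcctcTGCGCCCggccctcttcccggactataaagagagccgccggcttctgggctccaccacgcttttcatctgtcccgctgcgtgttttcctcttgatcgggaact
SLC30A1: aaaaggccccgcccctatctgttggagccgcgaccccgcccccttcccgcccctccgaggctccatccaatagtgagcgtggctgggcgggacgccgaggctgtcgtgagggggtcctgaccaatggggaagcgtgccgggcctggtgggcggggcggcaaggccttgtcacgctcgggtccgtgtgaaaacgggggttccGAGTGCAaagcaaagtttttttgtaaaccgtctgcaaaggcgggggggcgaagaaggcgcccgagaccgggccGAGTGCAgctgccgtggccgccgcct

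The MT2A window held 8 matches, 6 to TGCACNC and 2 to TGCGCNC, and 0.02% of 35116 RefSeq windows of 300 bases held as many. MT1X held 4 matches, a number that 0.6% of windows reached, and SLC30A1 held 2, which 8.6% reached. One match stood in the SLC39A6 window and 1 in the second of 2 SLC39A10 windows, a number reached by 29.6% of all windows, whereas the first SLC39A10 window and the MTF1 window held 0. The matches describe letters in these windows, and binding of MTF1 was not measured.

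As a check of the labels, MUC1 itself was lower, with 93, 84 and 102 counts in the control and 72, 51 and 34 in the shMUC1 libraries. In counts per 1e+06 library counts (CPM), this was 3.88 ± 0.401 against 2.14 ± 0.412 (SD, n = 3 per group; log2 fold change -0.84 with SE 0.214). The adjusted p was 0.00119 (quasi-likelihood test of edgeR, Benjamini-Hochberg over all 15355 genes). MUC1 shares annotated exon sequence on the same strand with AL713999.1, so its count is uncertain in that overlap. The overlap is small, as 0% of the 50-base words of MUC1 occur in another annotated gene. Library totals ran from 18678307 to 27825546 counts, and the mitochondrially encoded share was 3.35% to 4.17% in control and 4.95% to 5.22% in shMUC1 libraries. The part of this difference in the results was not tested. Of the 4 mesenchymal markers, VIM and CD44 were high but lower in shMUC1 cells, at 692 to 744 against 395 to 445 CPM (log2 fold change -0.78, edgeR adjusted p = 2.1e-20) and 1690 to 1740 against 1510 to 1540 CPM (-0.16, edgeR adjusted p = 1.36e-06). FN1 was higher, at 942 to 974 against 1270 to 1300 CPM (log2 fold change 0.42, edgeR adjusted p = 8.37e-16), and SPARC was low and fell further, at 1.07 to 2.19 against 0.362 to 0.43 CPM (log2 fold change -1.97, edgeR adjusted p = 0.00013). Of the receptors that define a triple-negative line, ESR1 and PGR had at most 12 counts in any library and ERBB2 stood at 38.4 to 47.3 CPM. The epithelial list (KRT19, GRHL2, RAB25, EPCAM and CLDN7) summed to 3.14 to 4.19 CPM in control and 13.6 to 15.4 CPM in shMUC1 libraries, nearly all of it EPCAM. KRT19, GRHL2 and RAB25 were at 0 in every shMUC1 library. Blood and stromal markers (PTPRC, CD68, PECAM1 and CD3E) summed to 1.39 to 2.18 and 1.45 to 1.79 CPM, with CD3E at 0. Within that sum PTPRC was higher (2 to 10 against 10 to 24 counts; log2 fold change 1.59, edgeR adjusted p = 0.0113) and PECAM1 was lower (25 to 40 against 4 to 13 counts; -1.94, edgeR adjusted p = 0.00032). The part of these marker differences in the results was not tested. Since these are bulk samples, more cells that express a gene and more RNA per cell cannot be told apart.

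All 4 tested metallothioneins were higher in shMUC1 cells, MTF1 and the importer SLC39A6 were higher, and the exporter SLC30A1 and the importer SLC39A10 were lower. Thus 6 of the 8 tested genes passed an adjusted p under 0.05 as higher, where 25.2% of all tested genes did, and 2 as lower, where 23.6% did. A fold change over 2 was reached by MT1F alone, against 2.21% of all tested genes that were higher and 3.74% that were lower by that rule. The median log2 fold change was 0.38 over the 8 genes, 0.86 over the 4 metallothioneins and 0.0006 over all tested genes. The CPM values of the groups did not overlap for any of the 8, as held for 54.8% of all tested genes. Since the genes were chosen with earlier results of these data known, the comparison with all tested genes is a description only.

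**Figure D1:**
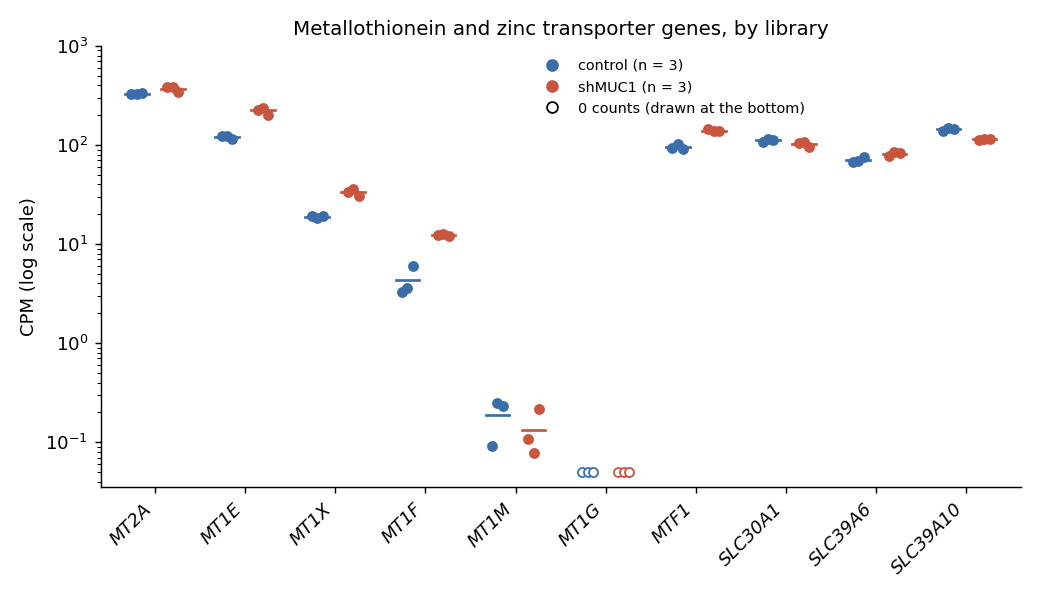
Level of each of the 10 genes in each library, in CPM on a log axis, with 3 control and 3 shMUC1 libraries per gene and genes at 0 counts drawn as open points at the bottom. MT2A is the highest metallothionein at 324 to 387 CPM, MT1F separates the groups most widely, and MT1G is at 0 throughout.

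Among the metallothioneins, MT2A and MT1E supplied most of the counts. MT1E (chr16:56625475-56627112, plus strand; GENCODE 29 on GRCh38, as for all gene coordinates given here) had 122, 122 and 115 CPM in control libraries and 228, 237 and 203 CPM in shMUC1 libraries. Every shMUC1 library lay far above every control library. The mean went from 120 ± 4.08 to 223 ± 17.7 CPM (SD, n = 3 per group; log2 fold change 0.90 with SE 0.0437, edgeR adjusted p = 2.94e-19).

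MT2A (chr16:56608199-56609497, plus strand), the main constitutively expressed metallothionein of many tissues, had 324, 330 and 338 CPM in control and 382, 387 and 339 CPM in shMUC1 libraries. The lowest shMUC1 library, replicate 3, only just exceeded the highest control library. MT2A went from 331 ± 6.94 to 370 ± 26.4 CPM (SD, n = 3 per group; log2 fold change 0.16 with SE 0.0373, edgeR adjusted p = 0.000459), the smallest rise of the 4.

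MT1X (chr16:56682424-56684196, plus strand) had 19.3, 18.4 and 19.0 CPM in control and 33.7, 36.2 and 30.4 CPM in shMUC1 libraries. Again the groups were well apart, and replicate 3 was the lowest shMUC1 library. MT1X went from 18.9 ± 0.458 to 33.4 ± 2.92 CPM (SD, n = 3 per group; log2 fold change 0.82 with SE 0.0786, edgeR adjusted p = 3.29e-11). Its exons overlap those of AC026461.1 on the same strand, and 11.3% of its 100-base words also occur in that gene, so the count is uncertain.

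MT1F (chr16:56657694-56660698, plus strand) was expressed at a much lower level, with 72, 88 and 154 counts in control libraries and 342, 324 and 225 counts in shMUC1 libraries. These correspond to 3.28, 3.61 and 5.96 CPM against 12.4, 12.6 and 12.1 CPM, so the control libraries varied and the shMUC1 libraries were tight. MT1F went from 4.29 ± 1.46 to 12.4 ± 0.244 CPM (SD, n = 3 per group; log2 fold change 1.51 with SE 0.151, edgeR adjusted p = 1e-10). Leaving out each library in turn gave log2 fold changes from 1.36 to 1.83.

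MT1M (chr16:56632233-56633986, plus strand) had 2, 6 and 6 counts in control and 3, 2 and 4 in shMUC1 libraries, too few to test. The groups overlapped, at 0.19 ± 0.0858 and 0.134 ± 0.0721 CPM (SD, n = 3 per group). MT1G (chr16:56666731-56668065, minus strand) was at 0 throughout the 6 libraries, a result that a level of up to 0.161 CPM in the shallowest and 0.109 CPM in the deepest would also give (3 counts, counting error only). Among values from 1 to 20 counts, 68.8% to 70.5% were even in each library. Both reads of each fragment may thus have been counted, and in that case the floor is 6 counts, 0.322 CPM in the shallowest and 0.217 CPM in the deepest library. A change in either gene was not detectable at this depth.

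These genes lie in 1 cluster of 119 kb on chromosome 16, with 16 annotated metallothionein genes and pseudogenes, of which 15 were rows of the table. Only 5 had over 10 counts in every library, and the same 5 were tested: MT2A, MT1E, MT1JP, MT1F and MT1X. MT1JP, a transcribed pseudogene between MT1M and MT1A, had 34, 57 and 43 counts in control and 98, 91 and 63 in shMUC1 libraries. It went from 1.85 ± 0.427 to 3.49 ± 0.089 CPM (SD, n = 3 per group; log2 fold change 0.91 with SE 0.23, edgeR adjusted p = 0.00111). MT3, MT4 and MT1DP were at 0 in every library, as was MT1G, and MT1A, MT1B, MT1CP, MT1H and MT1L had at most 10 counts in any library. Expressed genes and genes at or near 0 thus alternated along the cluster in both groups. Metallothionein genes resemble each other in sequence: the share of 50-base words found in another annotated gene was 7.1% for MT1E, 1.2% for MT1F, 3.0% for MT2A, 18.3% for MT1X and 8.5% for MT1JP. For 100-base words it was 0% except in MT1X. The genes that share words with MT1JP include MT1E, and whether reads of MT1E entered the MT1JP count was not tested.

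**Figure D2:**
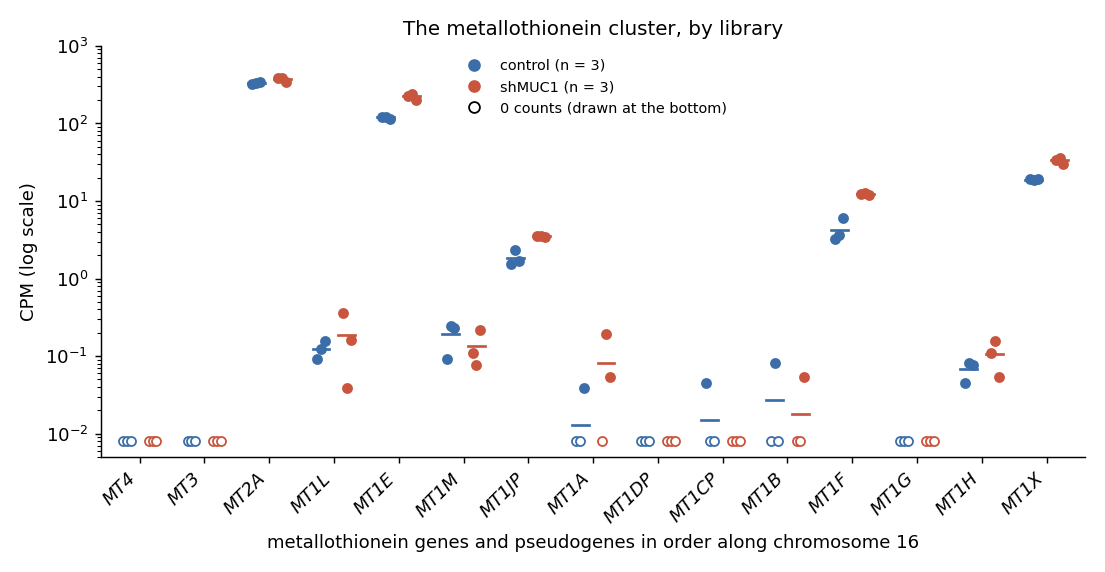
Level of the metallothionein genes and pseudogenes in order along chromosome 16, in CPM on a log axis, with 3 control and 3 shMUC1 libraries per gene and open points at the bottom for 0 counts. The 5 tested genes stand above the rest of the cluster, and MT1E, MT1JP, MT1F and MT1X are separated by group more widely than MT2A.

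Per kilobase of annotated exon, the order of levels in control cells was MT2A at 255 ± 5.34, MT1E at 114 ± 3.88, MT1X at 10.7 ± 0.258 and MT1F at 2.27 ± 0.773 CPM per kb (SD, n = 3 per group). In shMUC1 cells it was the same, at 285 ± 20.3, 212 ± 16.8, 18.8 ± 1.65 and 6.54 ± 0.129 CPM per kb. All neighbours in this order differed by more than their spread. The SD holds the spread between libraries and no error in length. Length was taken over all annotated exons of a gene, and the annotation behind the counts is not given.

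The summed level of the 6 metallothioneins was 469, 475 and 479 CPM in control and 657, 673 and 585 CPM in shMUC1 libraries. The sum was thus higher in every shMUC1 library, 1.35 times higher on the mean (474 ± 4.82 against 638 ± 46.9 CPM; SD, n = 3 per group). Its makeup differed too, with MT2A at 69.8% ± 0.789 of the sum in control and 57.9% ± 0.339 in shMUC1 libraries (SD, n = 3 per group), and MT1E at 25.3% ± 1.06 and 34.9% ± 0.273.

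To ask whether the MT1 genes rose more than MT2A, their counts were divided by those of MT2A in the same library, which removes the scaling between libraries. MT1E stood at 37.5, 37.0 and 34.0 counts per 100 MT2A counts in control and at 59.7, 61.2 and 59.8 in shMUC1 libraries. For MT1X the ratios were 5.96, 5.58 and 5.62 in control and 8.81, 9.35 and 8.95 in shMUC1 libraries, and for MT1F they were 1.01, 1.09 and 1.76 against 3.24, 3.25 and 3.56. None of the 3 ratios overlapped between groups. In CPM the groups did not overlap for 54.8% of all tested genes, and the same share for ratios to MT2A was not computed. The 3 ratios share their denominator, MT2A, which had the smallest rise of the 4 tested metallothioneins, and are not independent. The shMUC1 replicate 3, the lowest shMUC1 library for MT1E and MT1X in CPM, lay between the others in those ratios and was the highest for MT1F. The log2 difference was 0.74 for MT1E, 0.66 for MT1X and 1.42 for MT1F. An exact two-sided permutation test gave p = 0.1 for each ratio, the smallest that 3 against 3 allows, and 0.1 after adjustment over the 3 ratios. This exact test cannot fall below 0.1 here, whatever the size of the difference.

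**Figure D3:**
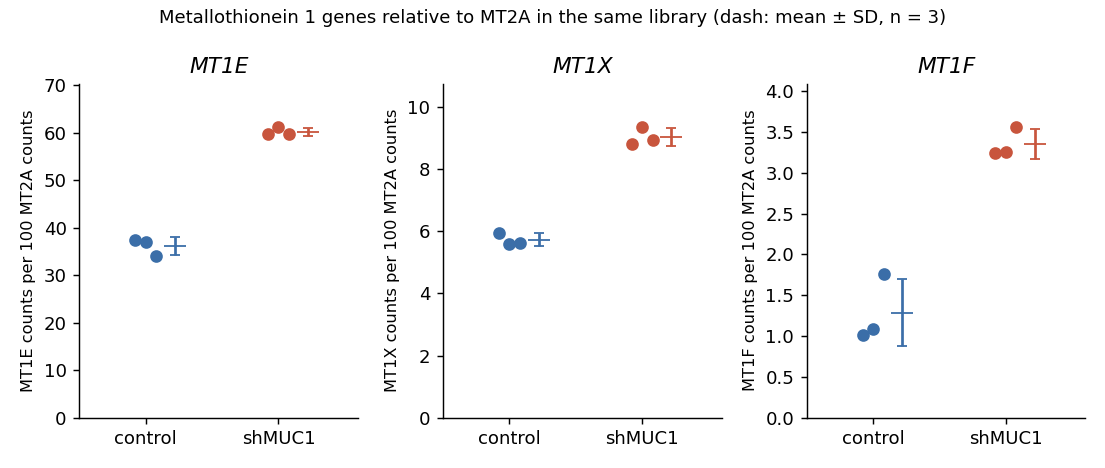
Counts of MT1E, MT1X and MT1F per 100 MT2A counts in the same library, on linear axes from 0, with points for the 3 control and 3 shMUC1 libraries and dashes for mean ± SD. All shMUC1 libraries are above all control libraries in each panel, with means of 60.2 against 36.2 for MT1E, 9.04 against 5.72 for MT1X and 3.35 against 1.29 for MT1F.

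MTF1 (chr1:37809567-37859620, minus strand), which encodes the zinc-sensing activator of metallothionein genes, had 92.7, 102 and 90.9 CPM in control and 144, 137 and 137 CPM in shMUC1 libraries. The groups were widely separated. MTF1 went from 95.1 ± 5.80 to 140 ± 4.15 CPM (SD, n = 3 per group; log2 fold change 0.55 with SE 0.0436, edgeR adjusted p = 2.27e-13). Only 0.9% of its 50-base words occur in another annotated gene. The count measures MTF1 transcript, and neither its protein nor its activity was measured.

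SLC30A1 (ZnT1; chr1:211571568-211578742, minus strand) encodes the zinc exporter of the plasma membrane and is a known MTF1 target. It had 107, 116 and 112 CPM in control and 105, 107 and 96.4 CPM in shMUC1 libraries. The groups touched at 107 CPM when rounded, although they did not overlap. SLC30A1 went from 112 ± 4.54 to 103 ± 5.54 CPM (SD, n = 3 per group; log2 fold change -0.12 with SE 0.0444, edgeR adjusted p = 0.0224). The call was lost without control replicate 2 (log2 fold change -0.0912, edgeR adjusted p = 0.127) and without shMUC1 replicate 3 (-0.0768, edgeR adjusted p = 0.198).

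The other zinc exporters were mostly lower. Of 9 further SLC30 genes, 6 were tested, of which 1 was higher, 4 were lower and 1 did not pass, with a median log2 fold change of -0.32. Over all tested genes, 25.2% were higher and 23.6% were lower. SLC30A4 (ZnT4), which loads zinc into vesicles, was the one that rose, from 29.1 ± 1.18 to 42.0 ± 2.04 CPM (SD, n = 3 per group; log2 fold change 0.52, SE 0.0667, edgeR adjusted p = 2.47e-08). SLC30A7 (ZnT7), an exporter into the Golgi, fell from 129 ± 4.57 to 79.8 ± 2.44 CPM (SD, n = 3 per group; log2 fold change -0.69 with SE 0.043, edgeR adjusted p = 3.23e-16). SLC30A6 and SLC30A5, which pair as an exporter of the early secretory pathway, had log2 fold changes of -0.40 and -0.25 (edgeR adjusted p = 6.42e-07 and 0.000143). SLC30A3 (ZnT3), known from synaptic vesicles, was weakly expressed and fell from 4.19 ± 0.639 to 2.29 ± 0.32 CPM (SD, n = 3 per group; log2 fold change -0.87, SE 0.207, edgeR adjusted p = 0.000606). SLC30A9 had 83.6 ± 2.11 and 84.6 ± 2.11 CPM (SD, n = 3 per group; edgeR adjusted p = 0.8). SLC30A2 and SLC30A10 were at 0 in all libraries, and SLC30A8 had 6 counts in 1 library.

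SLC39A10 (ZIP10; chr2:195575977-195737702, plus strand) and SLC39A6 (ZIP6; chr18:36108532-36129385, minus strand) encode closely related zinc importers of the plasma membrane that can form a heteromer. SLC39A10 had 140, 150 and 144 CPM in control and 113, 115 and 114 CPM in shMUC1 libraries. It was lower in all shMUC1 libraries, which were nearly identical, and went from 145 ± 5.41 to 114 ± 0.844 CPM (SD, n = 3 per group; log2 fold change -0.35 with SE 0.0398, edgeR adjusted p = 2.79e-09). SLC39A6, known in breast cancer as the oestrogen-regulated LIV-1, had 67.6, 69.3 and 75.3 CPM in control and 77.9, 84.2 and 82.8 CPM in shMUC1 libraries. It moved in the opposite direction to its partner, from 70.7 ± 4.07 to 81.6 ± 3.32 CPM (SD, n = 3 per group; log2 fold change 0.20 with SE 0.0499, edgeR adjusted p = 0.000781). Per kilobase of exon, SLC39A10 and SLC39A6 stood at 20.9 ± 0.782 and 19.2 ± 1.10 CPM per kb in control and at 16.4 ± 0.122 and 22.2 ± 0.901 CPM per kb in shMUC1 cells (SD, n = 3 per group), so their intervals of mean ± SD overlapped in control cells and SLC39A6 was the higher in shMUC1 cells. SLC30A1 overlapped both in control cells, at 20.4 ± 0.829 CPM per kb, and lay between them in shMUC1 cells, at 18.8 ± 1.01 CPM per kb. MTF1 was lowest of these 4 in control cells, at 11.9 ± 0.723 CPM per kb, and in shMUC1 cells its 17.4 ± 0.517 CPM per kb overlapped SLC30A1 and exceeded SLC39A10. The order between these genes also depends on the exon lengths used, whose error is not in the SD.

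Among 12 further SLC39 genes, 9 were tested, with 3 higher, 3 lower and 3 that did not pass (median log2 fold change 0.08). The shares over all tested genes were 25.2% higher and 23.6% lower. SLC39A4 (ZIP4), the intestinal zinc importer mutated in acrodermatitis enteropathica, rose from 74.7 ± 1.68 to 111 ± 5.05 CPM (SD, n = 3 per group; log2 fold change 0.58, SE 0.0449, edgeR adjusted p = 1.58e-13). SLC39A8 (ZIP8), which carries zinc and manganese, rose from 32.5 ± 0.91 to 47.8 ± 2.84 CPM (SD, n = 3 per group; log2 fold change 0.56, SE 0.0637, edgeR adjusted p = 2.51e-09). SLC39A14 (ZIP14), which also carries iron and manganese, had a log2 fold change of 0.20 (edgeR adjusted p = 9.6e-05). SLC39A13, SLC39A7 and SLC39A9, importers that release zinc from internal compartments, fell by 0.40, 0.27 and 0.14 on the log2 scale (edgeR adjusted p = 4.29e-06, 0.0054 and 0.00153). The SLC39A7 call was lost without control replicate 1 (log2 fold change -0.21, edgeR adjusted p = 0.0566) and without shMUC1 replicate 2 (-0.20, edgeR adjusted p = 0.0621). SLC39A1 had 17, 24 and 28 counts in control and 20, 10 and 5 in shMUC1 libraries, a log2 fold change of -0.99 (SE 0.436; edgeR adjusted p = 0.0585), and shares exon sequence with CREB3L4 and AL358472.7. SLC39A11 and SLC39A3 had log2 fold changes of 0.16 and 0.08 (edgeR adjusted p = 0.265 and 0.71). SLC39A2, SLC39A5 and SLC39A12 had at most 6 counts in any library. SLC39A8 and SLC39A3 share exon sequence on the same strand with AC098487.1 and AC006538.2. SLC39A4, SLC39A7, SLC39A9, SLC30A3, SLC30A4 and SLC30A5 overlap exons of genes on the opposite strand. As the strand setting is not given, all these counts are uncertain in the overlaps. Overlaps are not given for every gene named here.

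Over the families as a whole, 1 of 7 tested SLC30 genes was higher and 5 were lower (median log2 fold change -0.25), and 4 of 11 tested SLC39 genes were higher and 4 lower (median 0.08). Among all tested genes, 25.2% were higher and 23.6% lower. The SLC30A1 call, counted here as lower, did not hold in every leave-one-out fit.

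**Figure D4:**
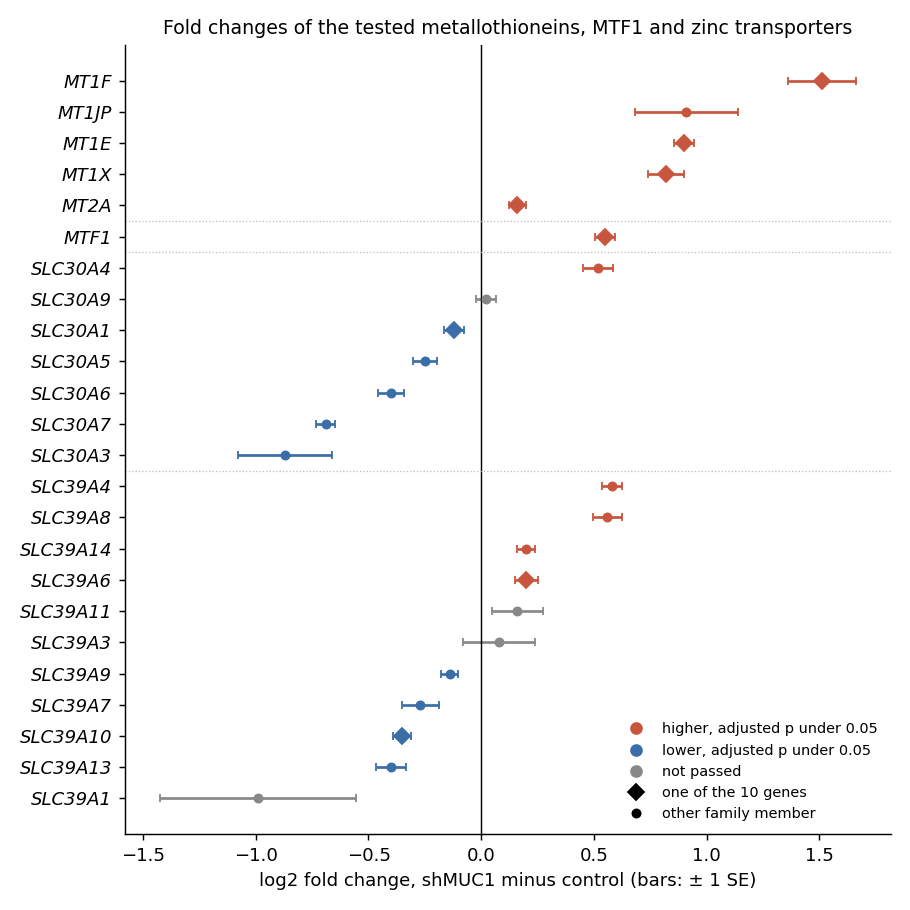
Log2 fold change (shMUC1 minus control, bars ± 1 SE) of every tested metallothionein, MTF1, SLC30 and SLC39 gene, with diamonds for the 8 tested genes of the set and circles for other family members, coloured by call. The metallothioneins and MTF1 lie right of 0, most SLC30 genes lie left of 0, and the SLC39 family lies on both sides.

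The 7-base word ATCAGTA, which an earlier analysis of these same data had tied to lower expression, was looked up in the annotated 3′ untranslated regions. It was present in 14.4% of 13032 tested genes with such a region. Among the 8 tested genes, SLC30A1 and SLC39A10, both of them lower in shMUC1 cells, held it, and the 6 that were higher did not. The SLC30A1 call did not hold in every leave-one-out fit. Calls among all 1875 tested genes with the word were not counted, so this split has no base rate beside it. Over these genes and all the lists together, 8 tested genes held the word, of which 3 were lower (SLC30A1, SLC39A10 and SLC30A7) and 5 did not pass (SLC30A9, SLC31A1, ATP2B1, SLC41A2 and FKBP5). Of the 74 without it, 28 were higher, 24 were lower and 22 did not pass, with SLC30A3, SLC30A5, SLC30A6 and SLC39A13 among those that fell. MUC1 also held it. Since the word was picked on these libraries, the match is no independent evidence, and its part in the fold changes was not tested.

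Genes that handle other metals were counted from lists fixed by name, with earlier results of these data known. Each count is to be read beside the calls over all tested genes, 25.2% higher and 23.6% lower. Of 11 tested copper genes, 4 were higher, 1 was lower and 6 did not pass (median log2 fold change 0.06). The largest copper rises were SCO1, a copper chaperone of cytochrome c oxidase, at 0.32 (SE 0.057; edgeR adjusted p = 1.3e-05) and COMMD1, which takes part in copper export, at 0.25 (edgeR adjusted p = 0.00433) on the log2 scale. COX11, a further oxidase assembly factor, fell by 0.24 on the log2 scale (edgeR adjusted p = 0.00069). The copper chaperone ATOX1, which delivers copper to the export pumps, had a log2 fold change of 0.22 (edgeR adjusted p = 0.0491), but passed in only 6 of 14 alternatives. It did not pass with DESeq2, with other scalings, with the filter of 50 counts or without control replicate 1 or 2 or shMUC1 replicate 2 or 3 (adjusted p up to 0.388, at a log2 fold change of 0.10 without control replicate 2).

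Of 15 tested iron genes, 4 were higher, 7 were lower and 4 did not pass (median log2 fold change -0.11), where 25.2% and 23.6% of all tested genes were higher and lower. Ferritin chains, which store iron, were lower: FTL went from 3250 ± 94.4 to 2350 ± 94.1 CPM (SD, n = 3 per group; log2 fold change -0.47, edgeR adjusted p = 5.81e-17), and FTH1 fell by 0.30 on the log2 scale (edgeR adjusted p = 8.33e-09). The mitochondrial iron importer SLC25A37 fell by 0.54 on the log2 scale (edgeR adjusted p = 3.81e-11). NCOA4, the receptor that delivers ferritin for degradation, rose from 381 ± 6.49 to 543 ± 4.14 CPM (SD, n = 3 per group; log2 fold change 0.51, edgeR adjusted p = 7.8e-17). FBXL5, an iron-sensing ubiquitin ligase subunit, rose by 0.37 on the log2 scale (edgeR adjusted p = 1.36e-08). The transferrin receptor TFRC rose from 1140 ± 13.7 to 1300 ± 23.4 CPM (SD, n = 3 per group; log2 fold change 0.19, edgeR adjusted p = 2.51e-07).

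Of 17 tested genes for manganese, magnesium and calcium transport, 4 were higher, 4 were lower and 9 did not pass. These counts were near the shares over all tested genes, 25.2% higher and 23.6% lower. The mitochondrial calcium channel MCU rose by 0.43 and the magnesium transporter MAGT1 by 0.25 on the log2 scale (edgeR adjusted p = 6.24e-11 and 2.26e-07). TRPM7, a channel for magnesium and zinc, fell by 0.33 on the log2 scale (edgeR adjusted p = 6.53e-10). CNNM2, a magnesium transport protein, fell by 0.35, a call lost without shMUC1 replicate 1 (log2 fold change -0.27, edgeR adjusted p = 0.0648). Over all 8 lists, 75 genes were tested, of which 23 were higher, 25 were lower and 27 did not pass, with a median log2 fold change of -0.01. The same calls took 25.2% and 23.6% of all tested genes, whose median was 0.0006.

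**Figure D5:**
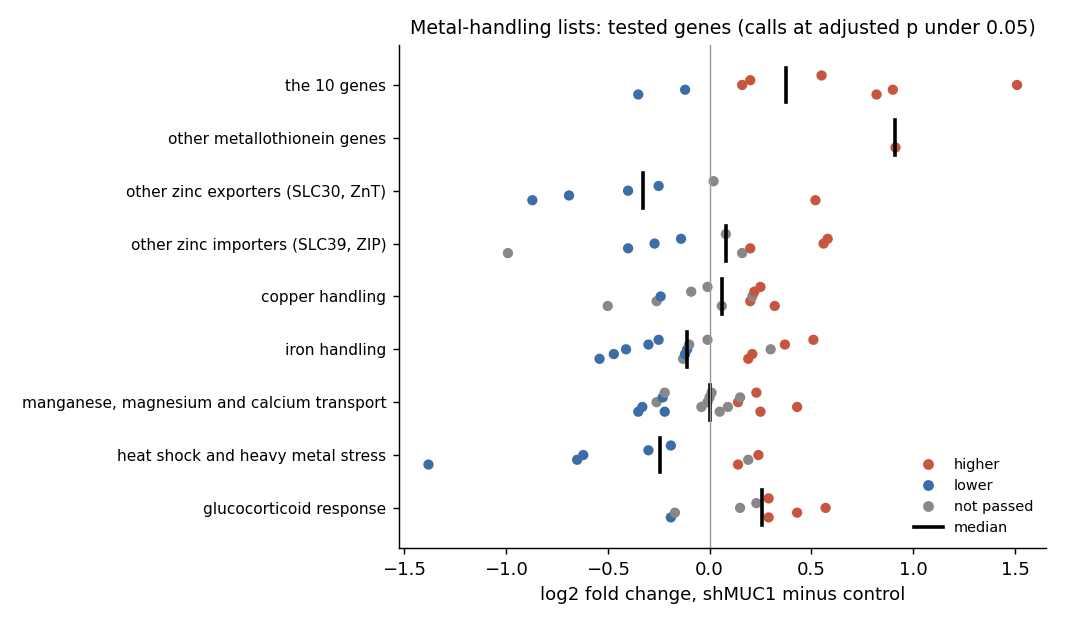
Log2 fold changes (shMUC1 minus control) of tested genes, 1 row per list, with a point per gene coloured by call and a black bar at the median. The 10 genes have a median of 0.38, while the medians of the other lists with several tested genes lie between -0.32 and 0.26.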

How the data were processed

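RNA was sequenced from 6 MDA-MB-436 cultures. The table that the authors deposited holds raw counts by gene symbol with a column for each library. The submitters' processing notes name CASAVA 1.8.2, STAR 2.7.9a, featureCounts, DESeq2 1.24.0 and GRCh38.p7. The annotation release, the strand setting and the treatment of multi-mapping reads are not given in the sources used here, and reads that match several metallothionein genes may have been dropped or split.

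Group differences were tested on these counts in edgeR 4.0.16 (quasi-likelihood test, R 4.3.3; TMM scaling, filterByExpr, group only), two-sided, with Benjamini-Hochberg adjustment over 15355 genes, and called at an adjusted p under 0.05. CPM values used TMM-scaled totals, and the SE was derived from the F statistic. Fold changes came from the fit. The scripts were tested on simulated data. All 10 genes and MUC1 were named whatever their values, and of each list the called genes with at least the 2 largest rises and falls where it had them. Zinc transporter and metallothionein lists could be named in full. The genes and lists were chosen with earlier results of these data known. Chi-square divided by its degrees of freedom was 2.79 to 5.55 for pairs of libraries within a group, so no pair agreed within sampling noise. Intervals and floors of 3 counts cover counting error only. Alternatives were other scalings and filters, DESeq2 1.42.0, limma-voom (limma 3.58.1), a replicate block, each library left out, a fold change over 1.5 and halved counts, since low counts were mostly even and both reads of a pair may have been counted, which makes counting errors drawn from them too small. The ratios to MT2A were not among the planned results. They were also recomputed, as alternatives chosen after seeing the data, with halved counts and with each library left out.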

Additional observations from a re-analysis of the deposited data

How the results depend on the processing

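Across 14 alternatives each, 110 of 112 values of the 8 tested genes held their sign and stayed on the same side of the threshold, and both exceptions were SLC30A1, without control replicate 2 and without shMUC1 replicate 3. Leaving out libraries therefore gave 1 to 2 lower genes. A fold change over 1.5 was passed by 3 genes (MT1E, MT1F and MT1X). Over the alternatives, log2 fold changes ran from 0.85 to 0.96 for MT1E, 1.36 to 1.83 for MT1F, 0.77 to 0.89 for MT1X, 0.13 to 0.22 for MT2A, 0.51 to 0.61 for MTF1, 0.18 to 0.24 for SLC39A6, -0.37 to -0.32 for SLC39A10 and -0.15 to -0.0768 for SLC30A1. MUC1 ran from -1.02 to -0.75. With the replicate block 6 genes were higher and 2 lower, and no call on the 8 genes changed. For each library, log2 CPM was also taken as a deviation from its group mean. Between same-numbered libraries these deviations correlated at 0.0049, -0.032 and -0.038, so the numbers did not pair them.

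Listed genes were followed singly only if called in the main fit or if tested SLC30 or SLC39 genes. A call gained by any other listed gene is therefore not included. Without control replicate 3, for example, 24 listed genes were higher, against 23 in the main fit. Of 726 values followed, 696 held their sign and side of the threshold. The call was lost by 23 values in 8 genes (ATOX1, PCBP2, CNNM4, CNNM2, ERRFI1, SLC39A7, ACO1 and SLC40A1). It was gained by 2 values for SLC39A1 (limma-voom and without shMUC1 replicate 1), and 5 values changed sign. These were SLC30A9 with library totals only (-0.00592), under a mean filter of 50 counts (-0.00682) and in leave-one-out fits (-0.0168 to 0.0362), and SLC39A3 in leave-one-out fits (-0.0737 to 0.21), neither of which passed the threshold. The cause was not tested. Ratios to MT2A stayed within 0.69 to 0.76 for MT1E, 0.64 to 0.69 for MT1X and 1.27 to 1.67 for MT1F when libraries were left out. Depth limits MT1G and MT1M.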

Other observations

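Of 8 tested genes on the heat shock and heavy metal stress list, 2 were higher, 5 were lower and 1 did not pass, where 25.2% and 23.6% of all tested genes were higher and lower, with a median log2 fold change of -0.25. HMOX1, the haem oxygenase that heavy metals induce, had 726, 772 and 826 counts in control and 327, 370 and 202 in shMUC1 libraries. It fell from 32.3 ± 0.751 to 12.4 ± 1.81 CPM (SD, n = 3 per group; log2 fold change -1.38 with SE 0.0895, edgeR adjusted p = 1.22e-15). The cystine importer SLC7A11 fell by 0.65 and the thioredoxin reductase TXNRD1 by 0.62 on the log2 scale (edgeR adjusted p = 2.74e-14 and 3.87e-19). HSF1, the heat shock transcription factor, and the chaperone DNAJB1 were higher by 0.24 and 0.14 on the log2 scale. HSPA1A and HSPA1B had at most 2 counts in any library, and 71.3% and 73.5% of their 50-base words occur in another annotated gene.

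Glucocorticoids also induce metallothioneins. Of 8 tested genes of the glucocorticoid list, 4 were higher, 1 was lower and 3 did not pass (median log2 fold change 0.26). Of all tested genes, 25.2% were higher and 23.6% lower. A part of glucocorticoid signalling in the metallothionein rise was not tested. The glucocorticoid-induced genes TSC22D3 and SGK1 were higher by 0.57 and 0.43 on the log2 scale (edgeR adjusted p = 0.000251 and 2.14e-12), and the receptor gene NR3C1 by 0.29 (edgeR adjusted p = 4.82e-09). FKBP5, a widely used marker of receptor activity, had a log2 fold change of 0.23 (edgeR adjusted p = 0.0532). PER1 and KLF9 did not pass either, at 0.15 and -0.17 on the log2 scale (edgeR adjusted p = 0.234 and 0.614). ZBTB16 was at 0 counts in every library. ERRFI1 was lower by 0.19 on the log2 scale, a call lost when control replicate 1, control replicate 2 or shMUC1 replicate 1 was left out (edgeR adjusted p = 0.0781, 0.183 and 0.14).

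Across the 6 libraries, the genes whose log2 CPM was most like that of MT2A were TM2D3 (Pearson r = 0.992), a gene whose name a spreadsheet had turned into a date (0.992), ABI2 (0.989), MOV10 (0.988) and SLC27A4 (0.984), among the 11120 genes compared (mean count of 100 or more). As 256 of these exceeded 0.9 and all values share the same 6 libraries, the likeness is a description only.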
